A study of Homo sapiens with 12 samples.

Results

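Thyroxine (T4) and triiodothyronine (T3) were compared directly in day 7 cells that had been differentiated toward the liver from the human embryonic stem cell line H9, an established line. The comparison took the 4 of the 12 libraries in the series that came from day 7 cells given either hormone, 2 libraries with 30 nM T3 and 2 with 30 nM T4. It set the hormones against each other at a matched dose and day. Libraries of day 19 with 30 nM T3 or T4 are also in the series and are used further below. The 2 libraries of day 7 cells given 0.1% DMSO were left out of the fit behind the values below and are printed as a description. They entered only the alternative fits of all 6 day 7 or all 12 libraries, named as such. The labels call day 7 cells hepatoblasts, the bipotent progenitors of the liver. They do not say when hormone was added, how long cells were exposed, which vehicle the hormones had, or whether a group's libraries represent separate cultures. The p-values therefore rest on the spread between the libraries alone, and that spread may be technical.

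T4 is the main product of the thyroid gland and carries an additional iodine on its outer ring compared with T3. Deiodinases remove iodine: DIO1 and DIO2 convert T4 to T3, while DIO3 inactivates both hormones. Iodothyronines enter cells through membrane transporters, and T3 binds the nuclear receptors encoded by THRA and THRB with higher affinity than T4. Human embryonic stem cells are kept undifferentiated by the transcription factors POU5F1, SOX2 and NANOG with FGF and Nodal signals, and these genes are normally turned down as cells pass through endoderm to liver progenitors.

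Each of the 4 libraries held 18371948 to 18530589 expected counts, and 22310 genes had counts above 0 in at least 1 of them. Levels below are TMM-scaled CPM, counts per 1e+06 counts after scaling for library composition. Of 16 hepatoblast markers, 14 reached 1 CPM in all 4 libraries, and ONECUT1 was below 1 CPM in all of them. Of 8 mature hepatocyte markers 5 reached 1 CPM in all 4, while ALB, CYP3A4 and CYP2E1 stayed below it. All 5 pluripotent cell markers were also present, and their summed level was 1230 and 1220 CPM with T3, 905 and 914 with T4, and 467 and 478 in DMSO. All 4 blood markers were below 1 CPM in every library. The RNA came from whole cultures, so fewer cells of a type and less RNA per cell cannot be told apart.

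The 2 promoter windows printed here belong to NANOG and CRIPTO, stem cell genes with some of the clearest differences between the hormones. Each runs from 250 bases before to 50 bases after an annotated start (RefSeq, GRCh38.p14, plus strand, 5′ to 3′), at chr12:7789152-7789451 for NANOG and chr3:46577538-46577837 for CRIPTO. Capitals mark, on either strand, the octamer core ATGCAAA read by POU factors, the element CATTGT read by SOX factors, and the hexamer AGGTCA read by nuclear receptors.
NANOG: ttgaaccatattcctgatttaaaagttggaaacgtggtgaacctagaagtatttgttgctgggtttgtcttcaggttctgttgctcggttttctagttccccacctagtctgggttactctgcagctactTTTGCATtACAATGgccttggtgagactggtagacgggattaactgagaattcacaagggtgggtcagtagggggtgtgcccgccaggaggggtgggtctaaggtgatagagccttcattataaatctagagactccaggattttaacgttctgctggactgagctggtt
CRIPTO: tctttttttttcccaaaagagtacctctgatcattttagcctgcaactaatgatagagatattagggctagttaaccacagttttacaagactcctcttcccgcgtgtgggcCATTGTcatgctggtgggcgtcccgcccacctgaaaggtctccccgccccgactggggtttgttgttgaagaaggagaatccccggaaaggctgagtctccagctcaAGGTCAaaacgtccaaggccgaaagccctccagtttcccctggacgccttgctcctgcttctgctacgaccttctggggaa
The NANOG window held, on the minus strand, the octamer core 120 bases and the SOX element 112 bases before the start, with 1 base between them. That joint motif (the SOX element, any 1 base, then the octamer core) was in 3 of 35116 promoter windows of the same length (0.00854%). The CRIPTO window held the SOX element 138 bases and the AGGTCA hexamer 31 bases before the start. It is 1 of 2 CRIPTO windows in the table. The other, at chr3:46574285-46574584 and not printed, held a SOX element 37 bases after its start and no other match. The windows of DPPA4, DNMT3B and UTF1, stem cell genes that were also lower with T4, held none of these motifs. Alone, the octamer core was in 4.46% of all windows, the SOX element in 10.8% and the AGGTCA hexamer in 13.8%. In the 238 windows of 169 genes that were lower with T4 the shares were 4.2%, 7.98% and 10.1%, and in the 145 windows of 91 genes that were higher they were 6.21%, 8.97% and 9.66%. The joint motif was in 1 window of the lower genes, that of NANOG, and in 0 of the higher genes.

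At day 7, 12 of 23 tested stem cell genes, among them NANOG, POU5F1 and DNMT3B, were lower with T4 and 0 were higher. The fetal growth factor IGF2 and the FGF targets ETV4, ETV5 and SPRY4 were lower too. Of 17 definitive endoderm genes 3 were slightly higher (TTR, GATA4 and SOX17), of which only TTR was also called by DESeq2. Of 16893 genes tested, 379 were called (2.24%), 129 higher with T4 (0.764%) and 250 lower (1.48%). A call was an adjusted p of at most 0.05 in edgeR's quasi-likelihood test with Benjamini-Hochberg adjustment over all tested genes. Before adjustment, 2368 of the 16893 genes had a p under 0.05 in that test. Most differences were small. Of the called genes 107 of the higher and 176 of the lower changed by less than 1.5-fold, and 15 and 31 by at least 2-fold. The median log2 fold change, T4 minus T3, was 0.28 for the higher genes, -0.39 for the lower and 0.00 over all tested genes. The common biological coefficient of variation was 2.56%, with 2 residual degrees of freedom. The call count was 175 with DESeq2, 66 in a fit of all 12 libraries, 15 without the filter on low counts and 3 with limma on FPKM values. It was 242 without T3 replicate 1, 260 without T3 replicate 2, 267 without T4 replicate 1 and 184 without T4 replicate 2.

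**Figure D1:**
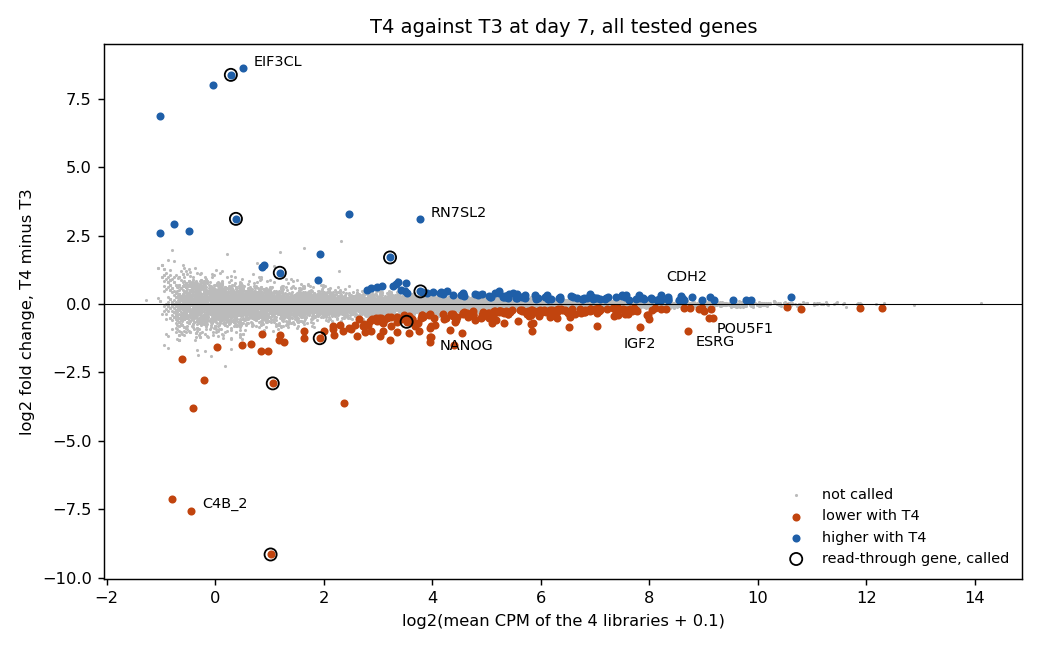
Each point is 1 of the 16893 tested genes, with the log2 of its mean CPM over the 4 libraries plus 0.1 on the x axis and the log2 fold change, T4 minus T3, on the y axis. The 250 genes called lower and the 129 called higher are coloured, and most lie within 1 unit of 0, while several of the most distant points at low CPM are read-through genes (ringed).

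NANOG, a core pluripotency transcription factor (Entrez gene 79923, chromosome 12, 7789402 to 7799146), was at 21.2 and 22.4 CPM with T3 and at 8.81 and 10.4 with T4. In DMSO it was at 1.83 and 2.37 CPM. The hormone groups did not overlap, and the T4 libraries lay between those of DMSO and T3. The log2 fold change was -1.19 (SE 0.0991, 95% interval -1.40 to -0.98, adjusted p = 1.81e-06). POU5F1, which encodes OCT4 (Entrez gene 5460, chromosome 6, 31164337 to 31170682), was at 649 and 629 CPM with T3, 449 and 456 with T4, and 188 and 198 in DMSO. The groups were far apart relative to the gap within a pair (log2 fold change -0.50, SE 0.0334, adjusted p = 1.36e-07). SOX2, their partner factor, differed less: 131 and 134 CPM with T3 against 113 and 116 with T4 (log2 fold change -0.21, SE 0.0412, adjusted p = 0.00782). The SOX2 call was lost without T3 replicate 2, T4 replicate 1 or T4 replicate 2 (adjusted p up to 0.123), and SOX2 lies within the noncoding gene SOX2-OT.

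Other stem cell genes differed in the same direction. CRIPTO (also named TDGF1), the Nodal co-receptor (Entrez gene 6997, chromosome 3, 46574535 to 46582457), was at 119 and 115 CPM with T3, 63.6 and 67.6 with T4, and 15.5 and 16.1 in DMSO (log2 fold change -0.84, SE 0.0475, adjusted p = 1.5e-08). DNMT3B, a de novo DNA methyltransferase, was at 685 and 671 CPM with T3, 475 and 470 with T4, and 211 and 219 in DMSO (log2 fold change -0.52, SE 0.0324, adjusted p = 5.26e-08). DPPA4, a chromatin-associated factor of pluripotent cells, was at 294 and 308 CPM with T3, 207 and 204 with T4, and 111 and 110 in DMSO (log2 fold change -0.55, SE 0.0372, adjusted p = 1.56e-07). In all 3 genes the T4 libraries stood clear of the T3 libraries and above those of DMSO. UTF1, another chromatin factor of stem cells, was at 20.5 and 21.1 CPM with T3 and 11.8 and 12.6 with T4, a log2 fold change of -0.77 (adjusted p = 6.6e-05). NANOG, POU5F1 and CRIPTO have processed copies elsewhere in the genome, among which the expected counts divide shared reads. The copy CRIPTO3 was lower as well, with a log2 fold change of -0.98 (adjusted p = 0.000385).

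**Figure D2:**
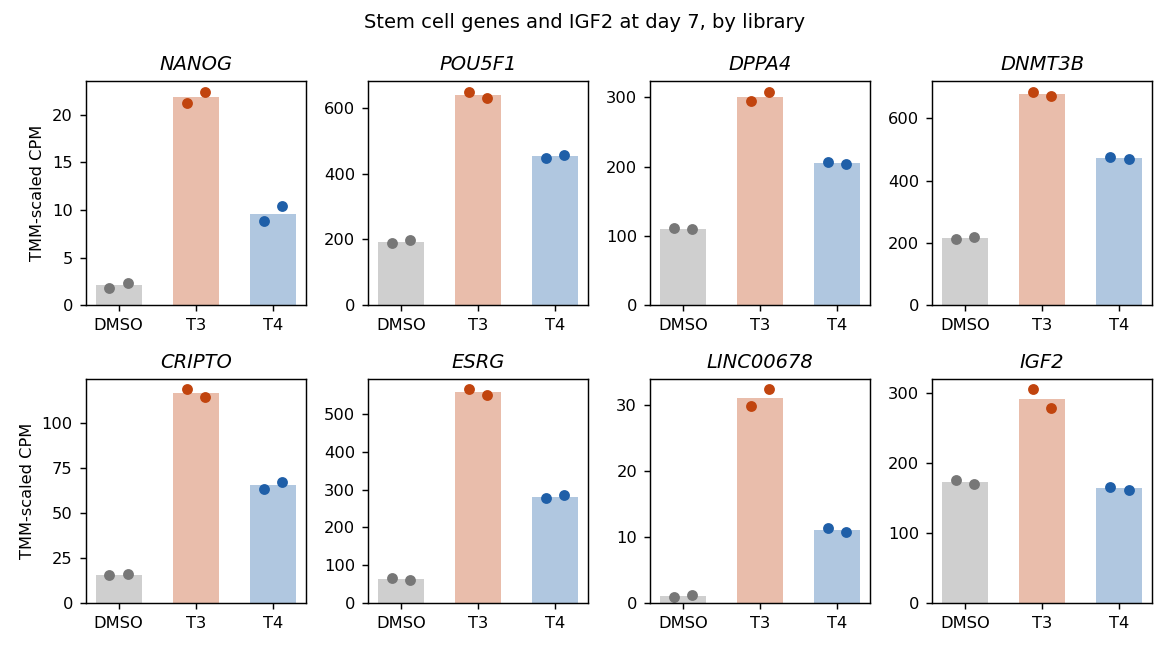
Bars show the mean and points the 2 libraries of each day 7 group, in TMM-scaled CPM on axes that start at 0, for 8 genes. In NANOG, POU5F1, DPPA4, DNMT3B, CRIPTO, ESRG and LINC00678 both T4 libraries lie below both T3 libraries and above both DMSO libraries, while the T4 libraries of IGF2, at 166 and 161 CPM, lie below DMSO at 176 and 170.

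Of 24 listed pluripotency factors and stem cell markers, 23 were tested: 12 were lower with T4 and 0 higher, with a median log2 fold change of -0.50. The remaining called genes were the transcription factors PRDM14 (-0.86), ZSCAN10 (-0.44) and KLF4 (-0.29), the deubiquitinase gene USP44 (-0.58) and L1TD1 (-0.41), which encodes an RNA-binding protein. The other 11 tested members did not pass. LIN28A, an RNA-binding protein that blocks let-7 maturation, was at 1270 and 1230 CPM with T3 and 1300 and 1330 with T4 (0.07, 95% interval 0.00 to 0.14). SALL4 (0.03), LIN28B (0.06), ZFP42 (-0.04) and TRIM71 (-0.06) had values near 0. TERT, DPPA2 and GDF3 had values of -0.48, -0.67 and -0.55, with intervals that reached -0.81, -1.22 and -1.03 at their lower end. FOXD3, a repressor of differentiation, was at 0.871 and 0.542 CPM with T3 and 0.328 and 0.218 with T4, too low to be tested. The KLF4 call had an adjusted p of 0.0453.

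Noncoding RNAs of human stem cells showed some of the widest gaps. ESRG, a long noncoding RNA of pluripotent cells (Entrez gene 790952, chromosome 3, 54632124 to 54639857), was at 565 and 549 CPM with T3, 277 and 285 with T4, and 64.9 and 59.7 in DMSO. Its log2 fold change was -0.99 (SE 0.0348, 95% interval -1.06 to -0.92, adjusted p = 5.37e-11). LINC00678 was at 29.8 and 32.3 CPM with T3, 11.4 and 10.7 with T4, and 0.914 and 1.24 in DMSO (log2 fold change -1.49, SE 0.0846, adjusted p = 1.5e-08). In both RNAs the 3 groups of day 7 were separate, with T4 in the middle. LINC-ROR, studied as a regulator of reprogramming, was at 16.3 and 15.5 CPM with T3 and 7.22 and 8.17 with T4 (-1.05, SE 0.108, adjusted p = 1.89e-05). LNCPRESS2, a noncoding RNA of embryonic stem cells, was at 12.1 and 10.4 CPM with T3, 5.03 and 5.01 with T4, and 0.43 and 0.0538 in DMSO (-1.17, SE 0.13, adjusted p = 4.59e-05). Of 9 listed RNAs 7 were tested, 4 were lower and 0 higher, with a median of -0.99. TUNAR (-0.11), MEG3 (0.59) and LINC01108 (0.17) did not pass. The strand of counting was not given in the sources used here, so reads of ESRG and LINC00678 cannot be separated with certainty from CACNA2D3 and BDNF-AS, which they overlap.

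The Nodal pathway keeps stem cells undifferentiated and later specifies endoderm. Besides CRIPTO, FOXH1, the DNA-binding partner of SMAD2 and SMAD3, was lower, at 61.1 and 60.7 CPM with T3 and 50.1 and 53.9 with T4 (-0.23, SE 0.0539, adjusted p = 0.0331). The ligand gene NODAL was at 8.87 and 9.32 CPM with T3 and 6.51 and 6.92 with T4, which did not overlap but did not pass (-0.44, 95% interval -0.70 to -0.18, adjusted p = 0.0781). The Nodal antagonists LEFTY1, at 1.63 and 1.19 against 0.547 and 0.654 CPM, and LEFTY2, at 1.69 and 1.79 against 1.09 and 0.545, had values of -1.23 (interval -2.00 to -0.45) and -1.08 (-1.81 to -0.35) and did not pass. Of 17 tested members 1 was higher and 2 lower, with a median of 0.01. The FOXH1 call was lost without any 1 of the 4 libraries (adjusted p up to 0.332).

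FGF signalling ends in the ETS factors ETV4 and ETV5 and in the feedback inhibitors of the SPRY family. ETV4 was at 16.7 and 19 CPM with T3, 8.54 and 9.64 with T4, and 3.71 and 4.2 in DMSO (-0.98, SE 0.107, adjusted p = 3.92e-05). ETV5 was at 6.09 and 6.18 CPM with T3, 2.95 and 2.67 with T4, and 2.1 and 1.78 in DMSO (-1.13, SE 0.166, adjusted p = 0.000829). SPRY4 was at 9.47 and 9.76 CPM with T3, 5.03 and 4.63 with T4, and 2.9 and 2.8 in DMSO (-0.99, SE 0.13, adjusted p = 0.000247). All 3 targets were thus separate between the hormones, with T4 closer to DMSO than to T3 in CPM. SPRY2 was lower by a smaller amount (-0.36, adjusted p = 0.0145), a call lost without either T3 library or without T4 replicate 2. The receptor gene FGFR4 was higher, at 361 and 347 CPM with T3 and 403 and 383 with T4 (0.15, adjusted p = 0.0483). The ligand genes FGF4, at 2.5 and 2.82 against 1.2 and 1.47 CPM (-0.99, adjusted p = 0.0545), and FGF2 (-0.23, adjusted p = 0.12) did not pass, nor did the receptor genes FGFR1 (-0.02), FGFR2 (0.07) and FGFR3 (0.06). Of 16 tested members 4 were lower and 1 higher, with a median of -0.29.

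IGF2, a growth factor of fetal tissues (Entrez gene 3481, chromosome 11, 2129117 to 2149566), was at 305 and 279 CPM with T3, 166 and 161 with T4, and 176 and 170 in DMSO. The T3 libraries alone were high. The log2 fold change was -0.84 (SE 0.044, 95% interval -0.93 to -0.74, adjusted p = 1.45e-08). IGFBP3, an IGF-binding protein, followed the same order, at 83.1 and 83.3 CPM with T3, 59.4 and 61.4 with T4, and 66.5 and 67.1 in DMSO (-0.46, SE 0.0476, adjusted p = 1.87e-05). DLK1, an imprinted gene of liver progenitors, was higher with T4, at 37.8 and 34.7 CPM with T3 and 45.6 and 42.9 with T4, against 72.1 and 67.9 in DMSO (0.29, adjusted p = 0.021). CDKN1C, an imprinted inhibitor of the cell cycle, was also higher (0.14, adjusted p = 0.0331). Of 17 tested genes of insulin-like growth factors and imprinted growth genes 2 were higher and 2 lower, with a median of -0.06. H19, the imprinted neighbour of IGF2, was at 0.271 to 0.547 CPM in the 4 libraries and was not tested. IGF2 overlaps INS-IGF2 and IGF2-AS. The CDKN1C call was lost without any 1 of the 4 libraries (adjusted p up to 0.403), and the DLK1 call without T3 replicate 2, T4 replicate 1 or T4 replicate 2 (up to 0.181).

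Among genes that handle or sense thyroid hormone, the inactivating enzyme and a transporter were lower with T4. DIO3, the deiodinase that inactivates T4 and T3 and a known target of T3 (Entrez gene 1735, chromosome 14, 101561495 to 101563452), was at 36.1 and 33.4 CPM with T3, 25.3 and 25.4 with T4, and 13.1 and 15.7 in DMSO. The log2 fold change was -0.46 (SE 0.0674, 95% interval -0.60 to -0.31, adjusted p = 0.000854), and the T4 libraries were separate from both other groups. SLC7A8, an amino acid transporter that also carries iodothyronines, was at 214 and 209 CPM with T3, 161 and 164 with T4, and 144 and 144 in DMSO (-0.38, SE 0.0378, adjusted p = 1.26e-05). TTR, the T4 carrier of plasma and a liver product, was higher, at 348 and 364 CPM with T3, 417 and 418 with T4, and 611 and 603 in DMSO (0.23, SE 0.0348, adjusted p = 0.00106). The activating deiodinases did not pass: DIO1 had a value of 0.10 (95% interval -0.29 to 0.48) and DIO2 of -0.05 (-0.20 to 0.09). The receptor genes THRA (-0.05, interval -0.20 to 0.10) and THRB (-0.15, -0.37 to 0.07) did not pass either. Of 19 tested genes of hormone receptors, transporters and deiodinases 1 was higher and 3 lower, with a median of -0.03.

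Of 24 tested genes known to respond to thyroid hormone 4 were called, 1 higher and 3 lower with T4, with a median of -0.12. KLF9, a direct receptor target in many tissues, was at 8.33 and 9.49 CPM with T3, 10.2 and 9.7 with T4, and 7.04 and 7.16 in DMSO. Its log2 fold change was 0.16 (95% interval -0.08 to 0.41, adjusted p = 0.587). At this depth and with 2 libraries, differences within that interval remain possible, and it reaches farther above 0 than below. HR, a corepressor and receptor target, was at 1.41 and 1.9 CPM with T3 and 1.31 and 0.981 with T4 (-0.53, interval -1.19 to 0.13). The other 3 of the 27 listed genes, among them THRSP and CYP7A1, were too low to be tested. The lower genes were DIO3, COL6A3, a collagen VI chain (-0.71, adjusted p = 0.00115), and STAT3 (-0.23, adjusted p = 0.0218). The STAT3 call was lost without T3 replicate 1 or T4 replicate 2 (adjusted p up to 0.329).

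Liver genes differed little, and not in 1 direction. AFP, a fetal serum protein related to albumin (Entrez gene 174, chromosome 4, 73436221 to 73456174), was lower with T4, at 102 and 98.9 CPM with T3, 80.6 and 79.6 with T4, and 152 and 146 in DMSO. The hormone groups did not overlap (log2 fold change -0.33, SE 0.0445, 95% interval -0.42 to -0.23, adjusted p = 0.000385), and both lay below DMSO. ALB, which encodes albumin, was at 0.49 to 0.867 CPM in the 4 libraries (-0.62, interval -1.48 to 0.24). HNF4A, a master regulator of liver identity, was at 274 and 254 CPM with T3, 286 and 295 with T4, and 381 and 383 in DMSO (0.14, interval 0.05 to 0.22, adjusted p = 0.0982), and did not pass. Of 21 tested hepatoblast and early liver genes 2 were higher (TTR and DLK1) and 1 lower (AFP), with a median of 0.07. Of 20 tested liver secreted proteins 2 were higher and 1 lower, with a median of 0.02. The apolipoprotein genes APOB (0.14, adjusted p = 0.0437) and APOA2 (-0.19, adjusted p = 0.00832) were called in opposite directions, and both calls were lost without T4 replicate 1 or T4 replicate 2, that of APOB also without T3 replicate 2 (adjusted p up to 0.385 and 0.199).

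SOX17, a transcription factor of definitive endoderm, was higher with T4, at 76.6 and 75.4 CPM with T3, 88.4 and 86.7 with T4, and 126 and 124 in DMSO (0.20, SE 0.0453, adjusted p = 0.023). GATA4, another endoderm factor, was at 124 and 112 CPM with T3, 137 and 136 with T4, and 185 and 181 in DMSO (0.21, SE 0.0473, adjusted p = 0.0222). The T4 libraries of both genes lay above T3 and below DMSO. FOXA2, a pioneer factor of endoderm, was at 70.6 and 68.7 CPM with T3 and 82.2 and 75.8 with T4 (0.18, interval 0.07 to 0.29, adjusted p = 0.0918). Of 17 tested definitive endoderm genes 3 were higher and 0 lower, with a median of 0.12. The third was TTR, a liver product that is also in other lists, and DESeq2 called 1 of the 17. Of 7 tested primitive streak genes 0 were called by edgeR and 0 by DESeq2, with 0 at an unadjusted p under 0.05 and a median of 0.25. The SOX17 call was lost without any 1 of the 4 libraries and the GATA4 call without T3 replicate 2, T4 replicate 1 or T4 replicate 2 (adjusted p up to 0.194 and 0.18). The summed level of the pluripotent markers moved with these endoderm genes, in the opposite direction, and its part in them was not tested.

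**Figure D3:**
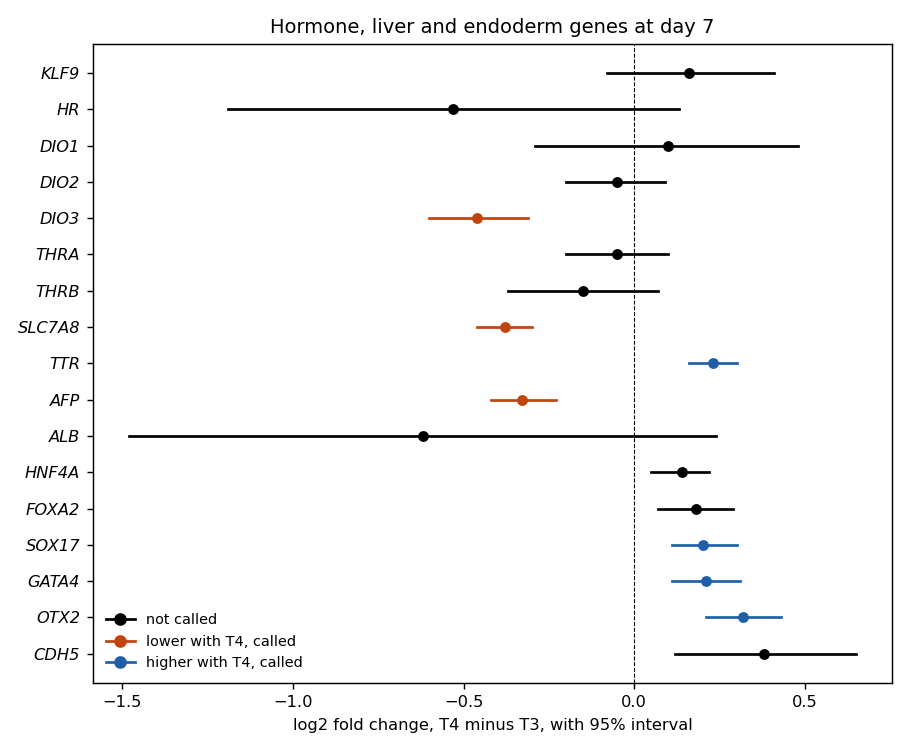
Points show the log2 fold change, T4 minus T3, at day 7 and lines its 95% interval for 17 hormone, liver and endoderm genes. DIO3, SLC7A8 and AFP lie wholly below 0, TTR, SOX17, GATA4 and OTX2 wholly above, and the intervals of KLF9, HR, DIO1, DIO2, THRA, THRB and ALB include 0. HNF4A, FOXA2 and CDH5 lie above 0 but did not pass after adjustment.

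Genes of other lineages were examined as well. Of 16 tested genes of mesenchyme and stellate cells 5 were lower and 1 higher, with a median of -0.20. THY1, a surface protein of fibroblasts that stem cells also carry, was at 55.9 and 59.5 CPM with T3, 37.5 and 36.9 with T4, and 24.5 and 23.5 in DMSO (-0.63, SE 0.0568, adjusted p = 4.02e-06). The collagen genes COL3A1 (-0.45, adjusted p = 8.59e-05) and COL1A1 (-0.29, adjusted p = 0.000985) and the transcription factor HAND1 (-0.24, adjusted p = 0.00505) were lower, and the receptor gene PDGFRA was higher (0.26, adjusted p = 0.000891). Of the 4 mesenchymal markers DCN was below 1 CPM in all libraries, and the sum of the 4 was 298 and 284 CPM with T3, 255 and 246 with T4, and 253 and 259 in DMSO. Of 13 tested amnion and trophectoderm genes 4 were lower and 0 higher, with a median of -0.11: IGFBP3, HAND1, the surface protein VTCN1 (-0.33, adjusted p = 0.000183) and the keratin KRT7 (-0.24, adjusted p = 0.00365). Their 4 markers summed to 378 and 384 CPM with T3, 339 and 337 with T4, and 351 and 351 in DMSO, with CGA below 1 CPM. The parts of these markers in the results were not tested. The calls of COL1A1 (adjusted p = 0.0529) and KRT7 (0.0842) were lost without T4 replicate 2, and that of HAND1 without T3 replicate 1 or T4 replicate 2 (up to 0.163).

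OTX2, a homeobox factor of forebrain and early epiblast, was higher with T4, at 50.7 and 54.6 CPM with T3, 65.7 and 65.7 with T4, and 66.7 and 68 in DMSO (0.32, adjusted p = 0.00256). SOX3, a factor of neural progenitors, was lower, at 25.3 and 25.3 CPM with T3, 19.4 and 16.9 with T4, and 6.24 and 5.98 in DMSO (-0.48, adjusted p = 0.00297), a call lost without T4 replicate 2 (0.0708). They were the called genes of 10 tested in the neural list, whose median was 0.05. The neural markers PAX6 and SOX1 were below 1 CPM. Of 7 tested HOX genes HOXB2 (-0.38, adjusted p = 0.0164) and HOXB6 (-0.98, adjusted p = 0.0286) were lower, with a list median of -0.34, and both calls were lost without either T3 library or without T4 replicate 2, HOXB2 also without T4 replicate 1. In the endothelial list 0 of 13 tested genes were called by edgeR or DESeq2, with 4 at an unadjusted p under 0.05 (median -0.03), CDH5 being at 6.42 and 6.99 CPM with T3, 9.03 and 8.5 with T4, and 16 and 16.4 in DMSO (0.38, interval 0.12 to 0.65, adjusted p = 0.145). In the blood list 0 of 5 tested genes were called by edgeR or DESeq2, with 1 at an unadjusted p under 0.05 (median 0.03). In the intestine and pancreas list it was 0 of 4, with 0 (median 0.01).

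The secreted WNT antagonists SFRP1 and SFRP2 differed in opposite directions. SFRP1 was at 168 and 168 CPM with T3, 212 and 209 with T4, and 213 and 216 in DMSO (0.32, SE 0.0371, adjusted p = 6.6e-05), so that T4 lay at the level of DMSO. SFRP2 was at 73.1 and 71.1 CPM with T3, 45 and 43 with T4, and 16.6 and 15.5 in DMSO (-0.71, SE 0.0525, adjusted p = 4.28e-07). They were the called genes of 18 tested WNT ligands and targets (median -0.05). In the retinoic acid list ALDH1A3, an enzyme that makes retinoic acid, was lower, at 3.43 and 3.25 CPM with T3, 1.64 and 0.926 with T4, and 0.269 and 0.215 in DMSO (-1.38, SE 0.267, adjusted p = 0.0081). CRABP2, a retinoic acid carrier, was higher (0.21, adjusted p = 0.00575), and the other 11 of 13 tested members did not pass (median 0.05). The ALDH1A3 call was lost without either T3 library or without T4 replicate 2 (up to 0.134), and that of CRABP2 without T3 replicate 2 or T4 replicate 2 (up to 0.159). Of 18 tested BMP genes 0 were called by edgeR or DESeq2, with 5 at an unadjusted p under 0.05 (median 0.03). Such list counts stand beside 2368 of 16893 over all tested genes.

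Some metabolic genes were lower with T4 by small amounts. SLC2A1, the glucose transporter GLUT1, was at 573 and 551 CPM with T3, 470 and 474 with T4, and 368 and 375 in DMSO (-0.25, SE 0.0339, adjusted p = 0.000317). It was 1 of 5 lower genes among 19 of glycolysis and glucose transport (0 higher, median -0.09), with the glycolytic enzymes ENO2 (-0.26), PFKP (-0.21), GPI (-0.13) and ALDOA (-0.12). Of 15 hypoxia response genes 4 were lower and 0 higher (median -0.05): SLC2A1, the peptide hormone ADM (-0.32), the kinase PDK1 (-0.26) and NDRG1 (-0.18). Of 24 tested genes of cholesterol synthesis and uptake 3 were lower and 0 higher (median -0.08). MVD, an enzyme of the mevalonate pathway, was at 84.3 and 84.4 CPM with T3, 76.2 and 71.8 with T4, and 82.1 and 85.8 in DMSO (-0.19). Calls of ENO2, PFKP, GPI, ALDOA, ADM, PDK1, NDRG1 and MVD had adjusted p-values of 0.00443, 0.00447, 0.0488, 0.0456, 0.00487, 0.0178, 0.0256 and 0.0483, and each but GPI, for which this was not run, was lost without at least 1 library. Of 26 oxidative phosphorylation genes 0 were called by edgeR or DESeq2, with 1 at an unadjusted p under 0.05 (median -0.02).

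Among growth and stress genes, 3 of 14 tested p53 targets were lower and 0 higher (median -0.07). PHLDA3, a p53-induced inhibitor of AKT, was at 40.1 and 39.6 CPM with T3, 28.9 and 27.3 with T4, and 17.5 and 15.6 in DMSO (-0.50, SE 0.0626, adjusted p = 0.000153). The apoptosis gene BAX (-0.26, adjusted p = 0.00174) and the cell cycle inhibitor CDKN1A (-0.46, adjusted p = 0.00299) were the others, the latter lost without T4 replicate 2 (0.0583). Of 30 cell cycle genes only CCND1, a G1 cyclin, was called (-0.21, adjusted p = 0.0433, lost without any 1 of the 4 libraries, list median -0.07). In that list 28 values were below 0, mostly by small amounts, against 8294 of 16893 over all tested genes. An unadjusted p under 0.05 was reached by 8 of the 30. DNMT3B was the 1 lower gene of 11 in the DNA methylation list (median -0.01). VLDLR was the 1 lower gene of 18 in the ATF4 list (-0.46, adjusted p = 0.0477, list median -0.10), and MT1X the 1 lower of 7 tested metallothioneins (-0.29, adjusted p = 0.0153, list median 0.03). FOSL1 (-1.49, adjusted p = 0.0266) and IER3 (-0.40, adjusted p = 0.0441) were lower among 14 tested immediate early genes (median -0.02). The VLDLR call was lost without any 1 of the 4 libraries, and those of MT1X, FOSL1 and IER3 without at least 3 of them in turn. In the unfolded protein response list 0 of 16 were called by edgeR or DESeq2 (median 0.03), and in the list of oncofetal RNA-binding and chromatin genes 0 of 8 (median -0.02), each with 1 gene at an unadjusted p under 0.05.

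**Figure D4:**
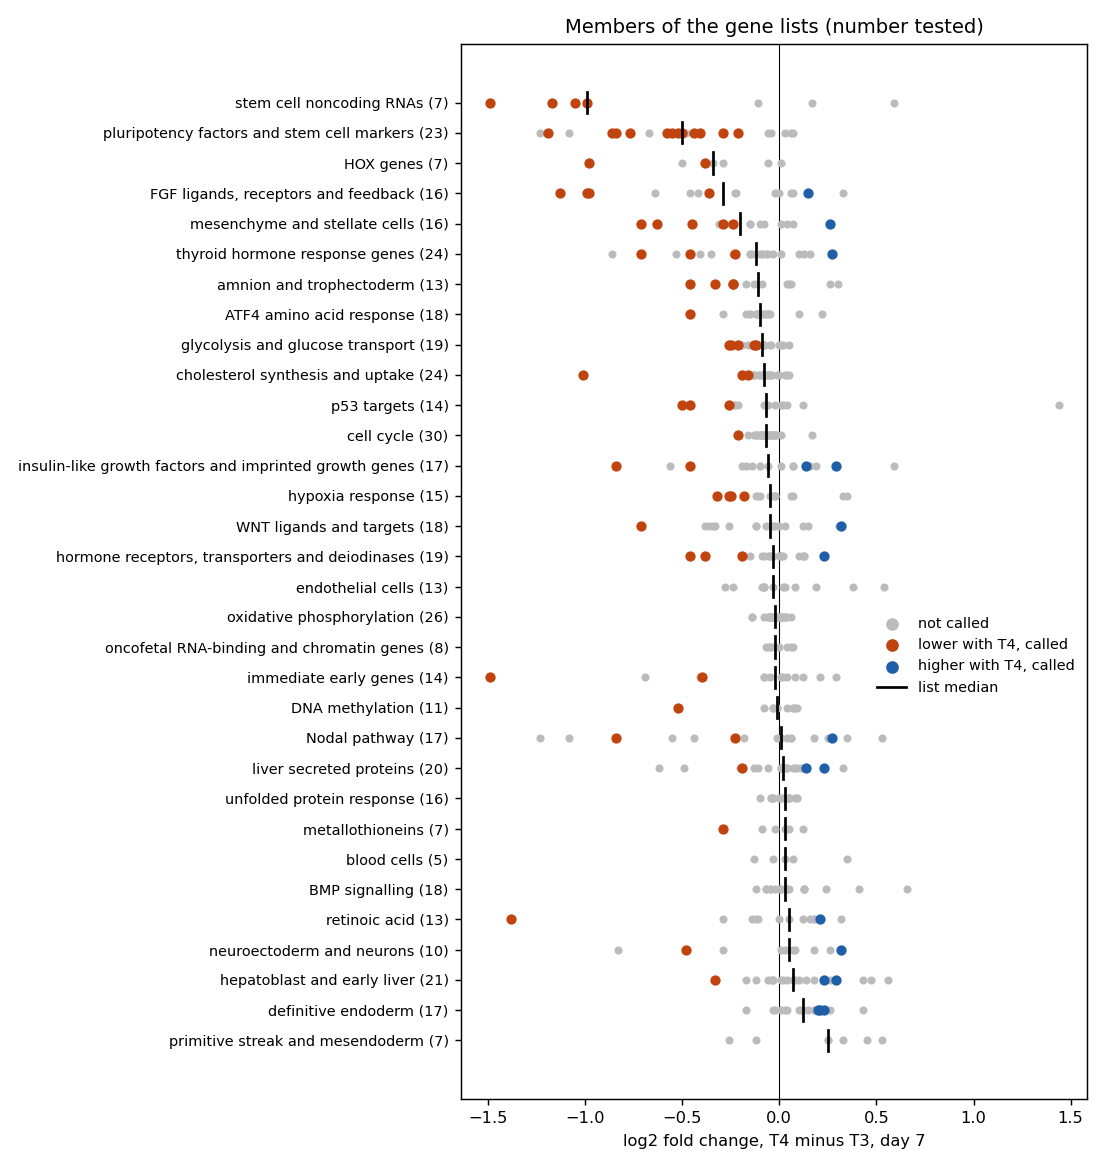
Each point is a tested member of 1 of the 32 lists with at least 5 tested genes, placed by its log2 fold change, T4 minus T3, with black bars for list medians and the number tested in brackets. The medians of the stem cell noncoding RNAs (-0.99) and of the pluripotency list (-0.50) lie farthest to the left, and those of definitive endoderm (0.12) and primitive streak (0.25) farthest to the right.

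The genes with the largest fold changes were mostly read-through transcripts or members of near-identical pairs, whose reads the counting method divides between copies. CHKB-CPT1B, at 3.92 and 3.79 CPM with T3, and C4B_2, at 1.47 and 1.08, were at 0 in both T4 libraries and at least 47.1-fold and 15.6-fold lower with T4, against a floor of 3 counts over the 2 libraries. EIF3CL, COMMD3-BMI1 and GOLGA6L22 were at 0 in both T3 libraries and at least 32.5-fold, 27.5-fold and 21.4-fold higher with T4. When each gene was summed with its partners, the sums were not called. CHKB with CPT1B had a log2 fold change of 0.03 (adjusted p = 0.851) and the C4 genes 0.02 (0.979). EIF3C with EIF3CL had 0.01 (0.951) and COMMD3 with BMI1 0.08 (0.632). The same held for SULT1A4 (-3.61 alone, -0.04 summed), SENP3-EIF4A1 (-2.90 alone, -0.04 summed), TGIF2-RAB5IF (3.11 alone, 0.01 summed) and ZNF177 (1.83 alone, 0.07 summed). Most sums lay far above the gene itself and could hardly show its own difference. EIF3CL was at 3.23 and 2.07 CPM with T4 inside sums of 781 and 765. CHKB-CPT1B, with T3, lay inside sums of 50.4 and 50.8. The C4 sum, 3.43 and 3.2 CPM with T3 and 3.06 and 3.65 with T4, was closer to its gene. How reads were divided was not tested. Of 86 tested read-through genes 9 were called, against 379 of all 16893 tested genes (2.24%). Of the 46 called genes with at least 2-fold, 7 were of this kind, against 86 of the 16893 tested. No sum was made for GOLGA6L22 and GOLGA8O (-1.57, adjusted p = 0.0491), which belong to multigene families, so their differences are uncertain.

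RN7SL1 and RN7SL2, near-identical genes of the RNA in the signal recognition particle, stayed higher when summed: 3.97 and 3.74 CPM with T3, 17.6 and 50.7 with T4, and 5.86 and 4.09 in DMSO (3.15, SE 0.346, adjusted p = 3.84e-06). The T4 libraries differed widely from each other. THRB-AS2, which lies within the receptor gene THRB, was at 0.218 and 0.108 CPM with T3, 1.09 and 1.04 with T4, and 0.914 and 1.02 in DMSO (2.66, SE 0.514, adjusted p = 0.00809). Without strand its reads cannot be told from those of THRB, and its call was lost without T3 replicate 2 or T4 replicate 2 (up to 0.107). The keratin KRT16 was at 2.67 and 2.49 CPM with T3 and 0.766 and 0.817 with T4 (-1.70, adjusted p = 0.00277). The pseudogene KRT16P3 was at 1.09 and 1.36 CPM with T3 and 0 and 0.163 with T4 (-3.79, adjusted p = 0.00306). Reads may be divided between KRT16 and KRT16P3, but both were lower with T4, and no sum of them was made. FOXD3-AS1, which overlaps FOXD3, was at 2.45 and 3.25 CPM with T3 and 0.985 and 0.763 with T4 (-1.70, adjusted p = 0.00297; lost without T3 replicate 2 at 0.0661). Without strand, reads of FOXD3-AS1 and FOXD3 cannot be told apart, and the same limit holds for ETV4 with DHX8, THY1 with USP2-AS1, FOXH1 with KIFC2, ALDH1A3 with ALDH1A3-AS1 and HOXB2 with HOXB-AS1. The remaining genes with the lowest fold changes were FAM74A3 (-2.76, adjusted p = 0.00293) and CSF1R, a macrophage receptor gene (-1.45, adjusted p = 0.0398). FAM74A3 was at 1.47 and 1.19 CPM with T3 and 0.164 and 0.218 with T4, and no partner sum was made for it. Both calls were lost with DESeq2, and that of CSF1R also without T3 replicate 1, T4 replicate 1 or T4 replicate 2.

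The day 7 differences were set against the same comparison at day 19, when cells were labelled hepatocytes, in a fit of the 8 hormone-treated libraries. The difference itself between the days was tested. Of 17780 genes 687 were called (3.86%), and of the 379 genes called at day 7, 87 were among them. The day 7 values that picked the 379 also enter this test, so the 87 cannot be weighed against the 3.86%. Day 19 libraries had 2691 genes called between T4 and T3 in this fit (15.1%). Libraries of a group differed more at day 19 (chi-square per gene 8.618 for T3 and 4.954 for T4) than at day 7 (2.1 and 1.623). The fit shared the spread of each gene between the days. The day 19 SEs and calls, and those of the difference between the days, therefore lean partly on the tighter day 7 libraries. AFP was lower with T4 at day 7 (-0.33) and higher at day 19 (1.79, SE 0.14), a difference of 2.13 (SE 0.204, adjusted p = 0.000179). SFRP2 went from -0.71 to 1.51 (adjusted p of the difference 2.71e-07), and VTCN1 from -0.33 to 1.07 (4.23e-06). Among stem cell genes called at day 7, CRIPTO was at -0.84 at day 7 and 0.16 at day 19 (adjusted p of the difference 0.00106), DPPA4 at -0.55 and 0.18 (0.000949) and ESRG at -0.99 and -0.39 (0.0103). IGF2 went from -0.84 to -0.06 (0.00163). For NANOG, at -1.19 and -0.39, the difference between the days did not pass (0.147), nor for SOX2, at -0.21 and 0.49 (0.085). LNCPRESS2, at -1.17 and -1.10, did not pass either (0.986). Its SE was 0.742 at day 19 and 1.04 for the difference, too wide to tell whether the days were alike. FOXH1 had values of -0.23 and 0.49 (0.0425). LEFTY2, not called at day 7, had values of -1.08 and 1.97 (0.0253). DIO3 had values of -0.46 and -0.54, whose difference of -0.08 (SE 0.14) did not pass (0.824). Without any 1 library the count of 687 fell to 129 to 329, except without the T3 libraries of day 19, which gave 707 (replicate 1) and 2038 (replicate 2).

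**Figure D5:**
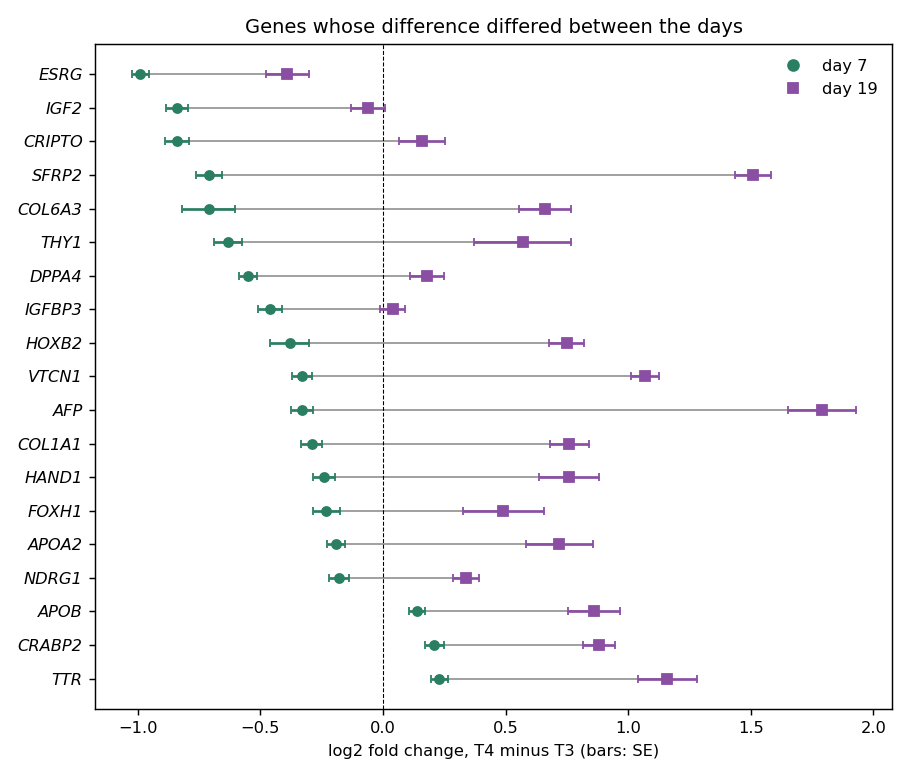
For 19 named genes called at day 7 whose T4 against T3 difference itself differed between the days, circles give the log2 fold change, T4 minus T3, at day 7 and squares that at day 19, with bars for the SE. AFP moves from -0.33 to 1.79 and SFRP2 from -0.71 to 1.51, while ESRG stays below 0 on both days at -0.99 and -0.39.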

How the data were processed

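RNA from H9-derived cells was sequenced in 12 libraries, of which the 4 of day 7 with 30 nM T3 or T4 entered the comparison. Per the submitters' processing notes the build was hg38 and the tools were HISAT, Bowtie2 and RSEM, with no versions. The deposited tables give, per transcript, expected counts, which RSEM estimates and which are not normalised, and FPKM values, which the authors scaled by transcript length and mapped reads. Transcripts listed had an FPKM of at least 0.01. Expected counts were summed per Entrez gene and rounded (Python 3.11.15, pandas 2.3.3, numpy 2.4.6). Of 23922 genes 23801 matched a RefSeq symbol (GRCh38.p14), and unmatched genes held 0.134% to 0.144% of the 4 libraries' counts. The total of 18371948 to 18530589 counts per library sets the counting error.

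Genes passing filterByExpr were TMM-scaled and tested two-sided with edgeR 4.0.16 in R 4.3.3 (quasi-likelihood F test, no replicate block, adjusted p at most 0.05, Benjamini-Hochberg). SE is the absolute log2 fold change over the square root of F. Levels were scaled over the 6 day 7 libraries. Libraries of a group differed by more than sampling noise (chi-square per gene 2.1 for T3 and 1.623 for T4, genes with at least 20 counts). Alternatives were DESeq2 1.42.0, its size factors, limma 3.58.1 on log2(FPKM + 0.1), no filter, a replicate block, other sets of libraries, a threshold of 0.01, leaving out the 10 most abundant genes and leaving out each library. The tests were also run on simulated counts that had the same dispersion for every gene and changes only in well-counted genes. That setting is simpler than these data, and it does not bear on the small changes or the genes with few counts described here.

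The comparison's members and the 33 gene lists were chosen with earlier results of these data known. Named genes were the 12 smallest and 8 largest log2 fold changes among called genes with at least 1 CPM in a group and no overlap (without symbols starting LOC, LINC or MIR), the 4 members of each list with the smallest p, and a fixed set of hormone, stem cell and liver genes. Other named list members, and genes given in the closing section, were chosen after their values were seen. Lists are described by counts and medians, without a set test. Some genes within these rules are counted but not reported by name here.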

Additional observations from a re-analysis of the deposited data

Results flagged for a closer look

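The difference between T4 and T3 itself differed between the days for 23 named genes called at day 7 (edgeR's quasi-likelihood test of the interaction over 8 libraries, adjusted p at most 0.05). The day 7 values by which they were called also enter this test, which favours a shift away from the day 7 direction. The values below are log2 differences, day 19 minus day 7, with the log2 fold change, T4 minus T3, at day 7 and at day 19 in brackets.

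Genes of liver products had a higher value at day 19 than at day 7: AFP by 2.13 (-0.33 and 1.79), TTR by 0.94 (0.23 and 1.16), APOA2 by 0.92 (-0.19 and 0.72) and APOB by 0.73 (0.14 and 0.86). Genes of the stem cell and Nodal lists shifted in the same direction: CRIPTO by 1.01 (-0.84 and 0.16), DPPA4 by 0.74 (-0.55 and 0.18), FOXH1 by 0.73 (-0.23 and 0.49) and ESRG by 0.60 (-0.99 and -0.39). Growth factor genes had shifts of 0.78 for IGF2 (-0.84 and -0.06) and 0.51 for IGFBP3 (-0.46 and 0.04).

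Matrix and mesenchymal genes shifted as well: COL6A3 by 1.38 (-0.71 and 0.66), THY1 by 1.21 (-0.63 and 0.57), COL1A1 by 1.05 (-0.29 and 0.76) and HAND1 by 1.01 (-0.24 and 0.76). SFRP2 shifted by 2.23 (-0.71 and 1.51), VTCN1 by 1.41 (-0.33 and 1.07), HOXB2 by 1.14 (-0.38 and 0.75), CRABP2 by 0.68 (0.21 and 0.88) and NDRG1 by 0.53 (-0.18 and 0.34).

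The remaining genes are uncertain in their counting. C4B_2, with near-identical copies and a group at 0 at day 7, had a fitted value of 8.09 (-7.56 and 0.64), which is no bound. RN7SL1 had -4.29 (3.28 and -1.02), RN7SL2 -4.55 (3.09 and -1.47) and THRB-AS2 -3.48 (2.66 and -0.83).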

How the results depend on the processing

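The 379 calls at day 7 became 175 with DESeq2 (173 shared), 15 without the filter on low counts, 3 with limma on FPKM values, 66 in a fit of all 12 libraries and 204 at an adjusted p of at most 0.01. Leaving out 1 library gave 184 to 267, where the lone library is assumed to vary like the other group. With limma on FPKM no member of any of the 33 lists was called. With the replicate block the count was 760, including all 379. The replicate numbers are not shown to pair the libraries: the correlation between T3 and T4 of the replicate 1 minus replicate 2 difference was 0.087 over 11364 genes. Counts stayed within 1.5 times with DESeq2's size factors (387), without the 10 most abundant genes (375) and with the 6 day 7 libraries (435), and, in alternatives chosen after seeing the data, with partner genes summed (454) and with a mean of at least 5 CPM (458). The share of higher genes was 34%, 10.6% with all 12 libraries, 6.67% without the filter and 66.7% of the 3 calls with limma. The cause of these changes was not tested.

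The 687 calls for a difference between the days became 341 without the filter and 129 to 2038 when 1 library was left out. With DESeq2 it was 678, of which 47.3% were higher against 63.2%, and with the replicate block 722.

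Of 84 named genes called at day 7, none changed direction under any alternative run for them. Calls were lost in 29 with DESeq2, 76 without the filter, 82 with limma on FPKM, 60 with all 12 libraries, 3 with the 6 day 7 libraries and 0 with DESeq2's size factors or the replicate block. Without the filter CRIPTO, DNMT3B, DPPA4, ESRG, IGF2, LINC00678, POU5F1 and SFRP2 were still called. Leaving out 1 library ended 22 to 35 calls. With 2 libraries a group and 18371948 to 18530589 counts each, differences of genes near 1 CPM, such as ALB and HR, were the least precise.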

Other observations

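Genes outside the lists, chosen after their values were seen, also separated the hormones at day 7. Those higher with T4 in edgeR's quasi-likelihood test included the following. COL4A1, a basement membrane collagen, was at 1490 and 1360 CPM with T3, 1700 and 1720 with T4, and 2000 and 1970 in DMSO (log2 fold change 0.27, SE 0.0373, adjusted p = 0.000481). CDH2, which encodes N-cadherin, was at 262 and 263 CPM with T3, 332 and 330 with T4, and 430 and 432 in DMSO (0.34, SE 0.0345, adjusted p = 1.87e-05). PTCH1, the receptor and target of Hedgehog signalling, was at 106 and 102 CPM with T3, 135 and 135 with T4, and 177 and 180 in DMSO (0.38, SE 0.0415, adjusted p = 4.07e-05). LINC00261, a noncoding RNA next to FOXA2, was at 161 and 158 CPM with T3, 201 and 204 with T4, and 310 and 307 in DMSO (0.34, adjusted p = 3.92e-05). The T4 libraries of these 4 genes lay between T3 and DMSO. DLL1, a Notch ligand gene (0.49, adjusted p = 0.000161), and the homeobox gene LHX5 (0.75, adjusted p = 0.000556) were higher too.

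Genes lower with T4 included CD9, a tetraspanin of the stem cell surface, at 71.1 and 70.1 CPM with T3, 42.9 and 42.4 with T4, and 17.5 and 18.8 in DMSO (-0.73, SE 0.0515, adjusted p = 2.65e-07). PMAIP1, which encodes the apoptosis protein NOXA, was at 49.1 and 49.8 CPM with T3, 30.8 and 29.8 with T4, and 9.73 and 10.3 in DMSO (-0.71, SE 0.0584, adjusted p = 1.73e-06). ETV1, the third PEA3-type ETS factor beside ETV4 and ETV5, was at 8.92 and 9.05 CPM with T3 and 5.53 and 3.27 with T4 (-1.03, SE 0.177, adjusted p = 0.00309). MYC was at 9.36 and 8.08 CPM with T3 and 5.03 and 5.34 with T4 (-0.75, SE 0.136, adjusted p = 0.00486).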
